A study of Mus musculus with 6 samples.

Results

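The genes of cholesterol and fatty acid synthesis were followed in 2 sorted cell fractions of the neonatal mouse cerebellum. The set holds 33 genes, found by their symbol in the array's annotation, of 22374 genes whose symbol was also found in RefSeq, and comprises 17 enzymes of the sterol pathway, 6 genes for its regulation and for sterol transport, and 10 fatty acid genes. The A+/G+ fraction is labelled as positive for both ACSA-2 (the antigen is the ATPase subunit Atp1b2) and GLAST, the glial glutamate transporter encoded by Slc1a3. The A-/G+ fraction is labelled as positive for GLAST alone. The paper counted rare ACSA-2+/GLAST- cells with A+/G+, and by its flow cytometry neither fraction was pure. Both came from wild type CD1 mice at postnatal days 1 to 3 according to the labels, and no treatment was involved. The paper's methods give a C57BL/6 background and days 0 and 1. They describe sorting from wild type and beta-actin-GFP mice, and do not say which were used for the arrays. Cerebella of either sex were pooled. A+/G+ cells were taken with anti-ACSA-2 beads alone, and A-/G+ cells were the GLAST+ cells left after depletion with antibodies to L1CAM, CD45, PSA-NCAM, Ter119 and ACSA-2, so that both the antigen and the sorting scheme differ between the fractions. Each fraction has 3 samples of 50000 cells, described as biological replicates, and each sample was hybridized to 1 array with the single dye Cy3.

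Cells build cholesterol from acetyl-CoA. The mevalonate arm makes isoprenoid units, squalene synthase joins them, squalene is closed to the first sterol, lanosterol, and a series of reductases, demethylases and isomerases turns lanosterol into cholesterol. The same acetyl-CoA feeds fatty acid synthesis, in which palmitate is made from malonyl-CoA and is then elongated and desaturated. The transcription factors SREBP1 and SREBP2 drive most of these genes when sterols are low, after SCAP has escorted them from the endoplasmic reticulum, where INSIG proteins hold SCAP back when sterols are plentiful. The brain makes its own cholesterol, and glia are a main site of its synthesis.

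The promoters of 8 genes are shown, 6 of which differed between the fractions (below) while Srebf2 and Insig1 encode regulators, so that the motifs of the pathway's factors can be read in them. The sequences are the 250 bases before the annotated start in RefSeq (build GRCm38.p6), read 5' to 3' on the strand of the gene. Capitals mark matches, on either strand, to a sterol regulatory element (TCACNCCAC), to the NF-Y motif (CCAAT) and to the Sp1 motif (GGGCGG). In Fasn the 2 NF-Y matches nearest the start overlap each other. A match is a run of letters and not evidence of binding.
Hmgcs1, chr13:119690101-119690350, strand +: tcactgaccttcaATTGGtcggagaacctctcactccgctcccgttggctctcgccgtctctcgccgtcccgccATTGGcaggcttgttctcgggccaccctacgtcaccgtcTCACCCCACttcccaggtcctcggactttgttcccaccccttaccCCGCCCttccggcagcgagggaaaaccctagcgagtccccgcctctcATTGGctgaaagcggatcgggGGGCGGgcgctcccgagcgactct
Tm7sf2, chr19:6067851-6068100, strand -: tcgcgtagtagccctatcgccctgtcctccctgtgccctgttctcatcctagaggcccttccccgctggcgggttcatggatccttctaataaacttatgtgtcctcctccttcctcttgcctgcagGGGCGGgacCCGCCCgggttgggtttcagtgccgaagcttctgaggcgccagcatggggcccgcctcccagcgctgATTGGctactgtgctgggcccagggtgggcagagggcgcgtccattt
Nsdhl, chrX:72918271-72918520, strand +: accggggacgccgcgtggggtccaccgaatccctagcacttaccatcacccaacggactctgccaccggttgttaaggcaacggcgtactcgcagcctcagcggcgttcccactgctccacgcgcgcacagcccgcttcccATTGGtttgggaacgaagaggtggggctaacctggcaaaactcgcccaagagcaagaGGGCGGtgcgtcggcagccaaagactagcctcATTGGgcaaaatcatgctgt
Elovl5, chr9:77917115-77917364, strand +: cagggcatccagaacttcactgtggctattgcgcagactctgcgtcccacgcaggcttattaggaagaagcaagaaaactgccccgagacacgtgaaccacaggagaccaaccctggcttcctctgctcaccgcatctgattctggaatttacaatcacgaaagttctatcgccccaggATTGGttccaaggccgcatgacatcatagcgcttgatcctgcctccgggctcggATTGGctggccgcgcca
Fads2, chr19:10101504-10101753, strand -: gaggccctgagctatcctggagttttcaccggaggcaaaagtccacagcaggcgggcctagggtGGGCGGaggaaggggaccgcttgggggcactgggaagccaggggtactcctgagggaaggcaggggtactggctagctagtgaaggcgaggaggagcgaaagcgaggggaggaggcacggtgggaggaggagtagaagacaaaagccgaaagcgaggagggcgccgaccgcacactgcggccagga
Fasn, chr11:120824548-120824797, strand -: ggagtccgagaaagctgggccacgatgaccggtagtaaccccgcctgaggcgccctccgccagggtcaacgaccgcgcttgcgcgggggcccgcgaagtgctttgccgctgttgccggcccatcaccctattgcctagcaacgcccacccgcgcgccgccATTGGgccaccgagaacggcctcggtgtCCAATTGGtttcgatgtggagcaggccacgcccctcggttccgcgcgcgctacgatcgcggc
Srebf2, chr15:82147019-82147268, strand +: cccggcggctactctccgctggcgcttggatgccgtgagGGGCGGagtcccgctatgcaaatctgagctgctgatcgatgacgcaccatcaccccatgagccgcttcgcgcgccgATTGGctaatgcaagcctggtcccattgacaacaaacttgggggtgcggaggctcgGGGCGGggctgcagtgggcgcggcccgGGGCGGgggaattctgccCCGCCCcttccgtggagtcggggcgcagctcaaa
Insig1, chr5:28071162-28071411, strand +: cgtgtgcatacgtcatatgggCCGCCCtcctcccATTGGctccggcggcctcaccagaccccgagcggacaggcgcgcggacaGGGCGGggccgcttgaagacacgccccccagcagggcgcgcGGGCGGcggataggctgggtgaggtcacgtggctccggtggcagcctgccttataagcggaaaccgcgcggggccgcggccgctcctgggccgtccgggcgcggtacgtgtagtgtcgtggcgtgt

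Of the 33 genes, 26 had a window in the RefSeq table. Over the whole window of 300 bases, which runs to 50 bases past the start, CCAAT or its complement was found in 21 of the 26 (80.8%), compared with 41.1% of the 27025 genes with a window. GGGCGG was found in 20 (76.9%), compared with 38.2%. Some genes had more than 1 window, and a gene counted as matched if any of them held the motif. All genes with a window were compared, without regard to their expression or number of windows. TCACNCCAC was found only in Hmgcs1, which is 3.85% of the 26 compared with 1.44% of all genes with a window, and related forms of the element were not searched. NF-Y matches were found in genes of both directions, such as Hmgcs1 and Fasn, and none was found in the upstream sequence of Fads2.

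**Figure D1:**
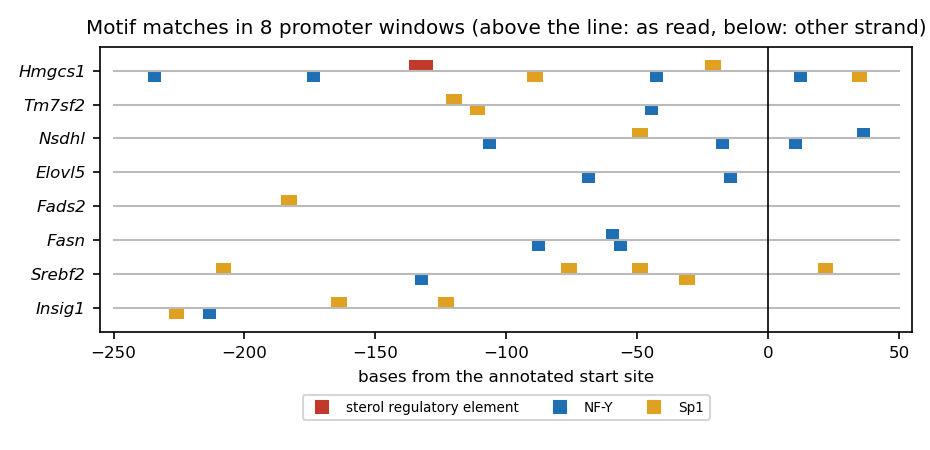
Position of motif matches in the windows of the 8 genes, in bases from the annotated start site (line at 0), with matches on the strand of the gene above the line and on the other strand below it. The only sterol regulatory element among the 8 lies in Hmgcs1, and the Elovl5 and Fasn windows hold NF-Y matches and no Sp1 match.

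All 33 genes were well above background on all 6 arrays. Each gene is represented by its brightest probe, that with the highest mean signal, as log2 of the background-corrected intensity after quantile normalization, and a difference is the A+/G+ mean minus the A-/G+ mean on this log2 scale. Signals of different probes cannot be compared with each other, and in bulk samples fewer cells of a type and less RNA per cell cannot be told apart. Fractions were compared with limma over all 55681 probes, and a gene was called at a Benjamini-Hochberg adjusted p of at most 0.05. For a single gene, 3 arrays against 3 cannot give an exact two-sided permutation p below 0.1.

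The A-/G+ arrays were dimmer and more varied. The 75th percentile of their raw intensity was 56.6, 113 and 251 for replicates 1, 2 and 3, whereas the A+/G+ arrays had 332 to 334. They held 18361 to 24745 probes well above background, and the A+/G+ arrays held 26493 to 26676. All A+/G+ arrays lay on one slide and all A-/G+ arrays on another, and the slide therefore cannot be told apart from the fraction. The sorted antigens matched the labels in part. Atp1b2 was higher in A+/G+ by 4.47-fold (adjusted p = 0.00725, limma), whereas Slc1a3, the GLAST gene, was 2.29-fold lower in A+/G+ without passing the limit (adjusted p = 0.0733).

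Markers of other cell types differed between the fractions. All 6 markers of oligodendrocyte precursors had higher means in A+/G+ (3 called, median difference 1.43), and their summed linear signal was 13953 to 17292 on the A+/G+ arrays and 1895 to 4535 on the A-/G+ arrays. The meningeal list (2 of 5 called), the ependymal list (4 of 4) and the Purkinje list (4 of 4) were also higher in A+/G+, with summed signals of 64421 to 77806, 2421 to 3672 and 3508 to 10710 compared with 11644 to 34303, 279 to 523 and 386 to 549. The Purkinje markers Calb1 and Car8 and the ependymal Dnah5 stayed below the background limit throughout A-/G+. None of the markers of endothelium, neurons, granule cells, microglia or red blood cells was called, but several of their means were higher in A+/G+. This held for all 5 endothelial markers (median difference 1.53, summed signal 7118 to 10940 compared with 1433 to 7642) and for all 3 red blood cell markers (1.57, 8796 to 16087 compared with 2537 to 7786). The red blood cell markers did not overlap between the fractions. The granule cell marker Cbln1 (2.48) and the neuronal Stmn2 (2.18) did not overlap either, while the medians of these 2 lists were 0.33 and 0.40, and that of the microglial list was -0.40. Of the 7 myelin genes 1 was called, higher in A-/G+, and Mog stayed below the background limit in A-/G+. All 6 markers of Bergmann and radial glia were called higher in A-/G+ (median difference -3.24). The paper had already reported Mybpc1, Npy, Gria1, Gdf10 and Wif1 as A-/G+ genes from these same arrays. Their calls were therefore known beforehand and are no separate check of the fraction. The astroglial list was split, with 2 of 5 genes called higher in A+/G+ (S100b and Atp1b2) while 1 was called in the other direction (Aldh1l1). Atp1b2 encodes the antigen used for the sort, so that its call is no separate marker of cell type. The part of these cell types in the differences of the lipid genes was not tested.

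The sterol and fatty acid genes were split rather than shifted as a whole. Of the 33 genes, 8 were called higher in A+/G+ (24.2%) and 2 were called higher in A-/G+ (6.06%), and 23 were not called. Among all 22374 named genes the shares were 7.88% and 5.01%, and among the 10982 named genes that were well above background on all arrays, to which the 33 belong, they were 9.18% and 9.49%. The median difference of the 33 genes was 0.20, compared with -0.04 over all probes. No gene of the set had medians at least 4-fold apart, the second limit of the study's methods, which together with the first was met by 2.23% of the bright genes in either direction. Unadjusted, 19 of the 33 (57.6%) had p under 0.05, as did 30.9% of all named genes and 44% of the bright ones. The 3 arrays of one fraction all lay above the 3 of the other in 22 genes, 14 of them with A+/G+ above (42.4%) and 8 with A-/G+ above (24.2%), whereas of 10978 bright genes without missing values 23.4% had A+/G+ above without overlap and 28.3% had A-/G+ above.

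**Figure D2:**
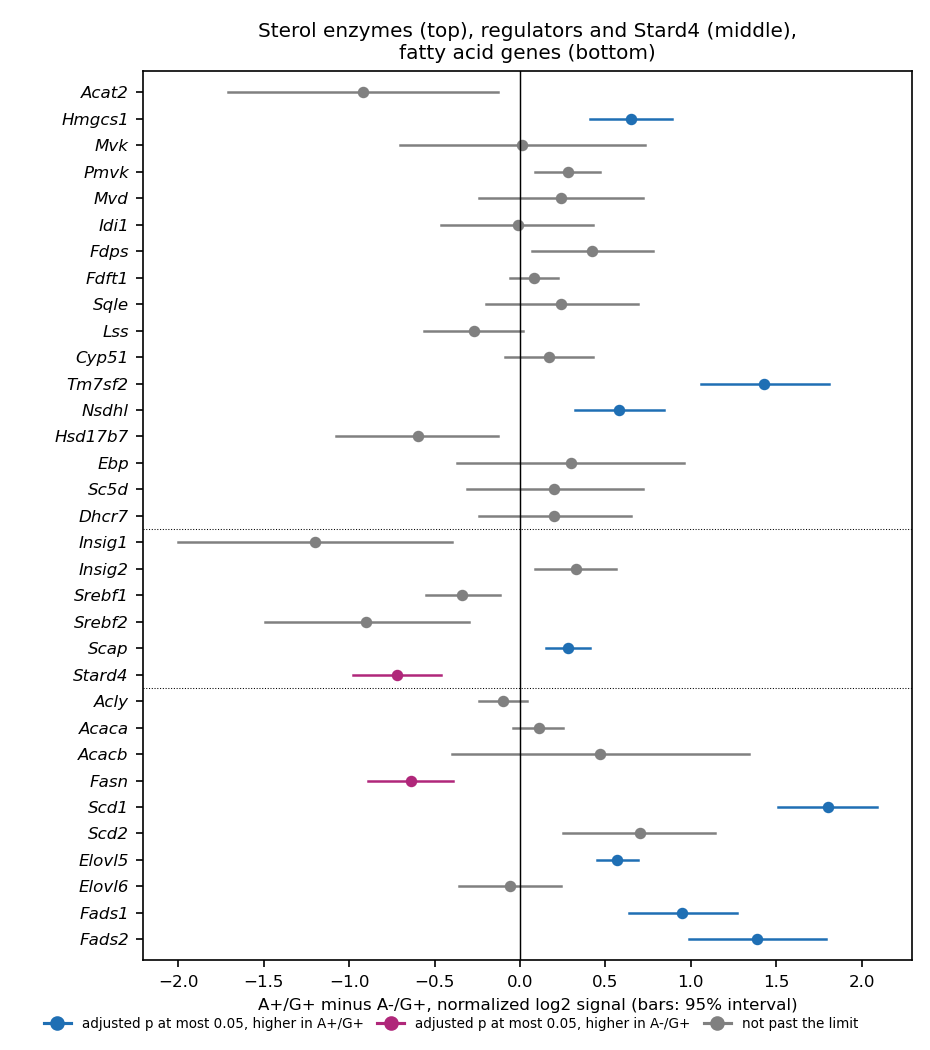
Difference of each of the 33 genes, A+/G+ minus A-/G+, in normalized log2 signal, with its 95% interval from limma over 3 arrays per fraction, and colour for genes past the adjusted p limit. The called differences higher in A+/G+ run from 0.28 (Scap) to 1.80 (Scd1), and the genes called higher in A-/G+ are Stard4 and Fasn.

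The calls rested on few arrays. With each array left out in turn, only Scd1 and Elovl5 were called in all 6 fits, although the differences of all called genes kept their sign in each. Without A+/G+ replicate 2 no other member was called, and without A-/G+ replicate 3, the brightest array of that fraction, 16 members were called, 11 with the higher mean in A+/G+, the other 5 in A-/G+. For the called members below, the arrays on which a call depended are given.

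The genes that desaturate and elongate fatty acids held the most calls. Their median difference was 0.83, and 4 of the 6 genes were called, all of them higher in A+/G+ (66.7%). Among the bright named genes 9.18% were called higher in A+/G+. Scd1, a stearoyl-CoA desaturase that makes monounsaturated fatty acids, showed the largest difference of the whole set. In A+/G+ its signal was 9.29, 9.40 and 9.30 (replicates 1, 2 and 3, as in all such lists) and in A-/G+ it was 7.53, 7.33 and 7.72. The fractions were thus far apart compared with their spread, with a difference of 1.80 (SE 0.114, n = 3 arrays per fraction, adjusted p = 0.0043 with limma), or 3.48-fold. Scd2, a second stearoyl-CoA desaturase and the isoform typical of brain, gave 15.58, 15.65 and 15.67 in A+/G+ and 15.10, 15.15 and 14.58 in A-/G+. The arrays did not overlap, but replicate 3 of A-/G+ lay apart from the other A-/G+ arrays, and the difference of 0.70 (95% interval 0.25 to 1.14) was not called (adjusted p = 0.0771, limma). Without that array it was called (adjusted p = 0.0152, limma).

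Fads1 and Fads2 encode the delta-5 and delta-6 desaturases, which act on polyunsaturated fatty acids. Fads2 gave 9.89, 10.03 and 10.12 in A+/G+ and 8.63, 8.87 and 8.36 in A-/G+, a 2.62-fold difference of 1.39 (SE 0.153, adjusted p = 0.0124, limma). A second Fads2 probe was also called, with a difference of 1.01 (adjusted p = 0.0232, limma). Fads1 gave 11.77, 11.74 and 11.76 compared with 10.70, 11.05 and 10.66, a 1.94-fold difference of 0.95 (SE 0.122, adjusted p = 0.017, limma). Both desaturases were separated between the fractions on every array. The Fads2 call was lost without A+/G+ replicate 2 or 3 (adjusted p = 0.0648 and 0.0639, limma), and the Fads1 call without any one of the A+/G+ arrays (adjusted p = 0.0728, 0.0784 and 0.0802 without replicates 1, 2 and 3). Elovl5, an elongase of polyunsaturated fatty acids, had the smallest spread among these genes. It gave 10.56, 10.58 and 10.60 in A+/G+ and 10.02, 9.99 and 10.03 in A-/G+, a difference of 0.57 (SE 0.0464, adjusted p = 0.00688, limma), or 1.49-fold. Elovl6, which elongates palmitate to stearate, had a difference of -0.06 with an interval from -0.36 to 0.24.

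**Figure D3:**
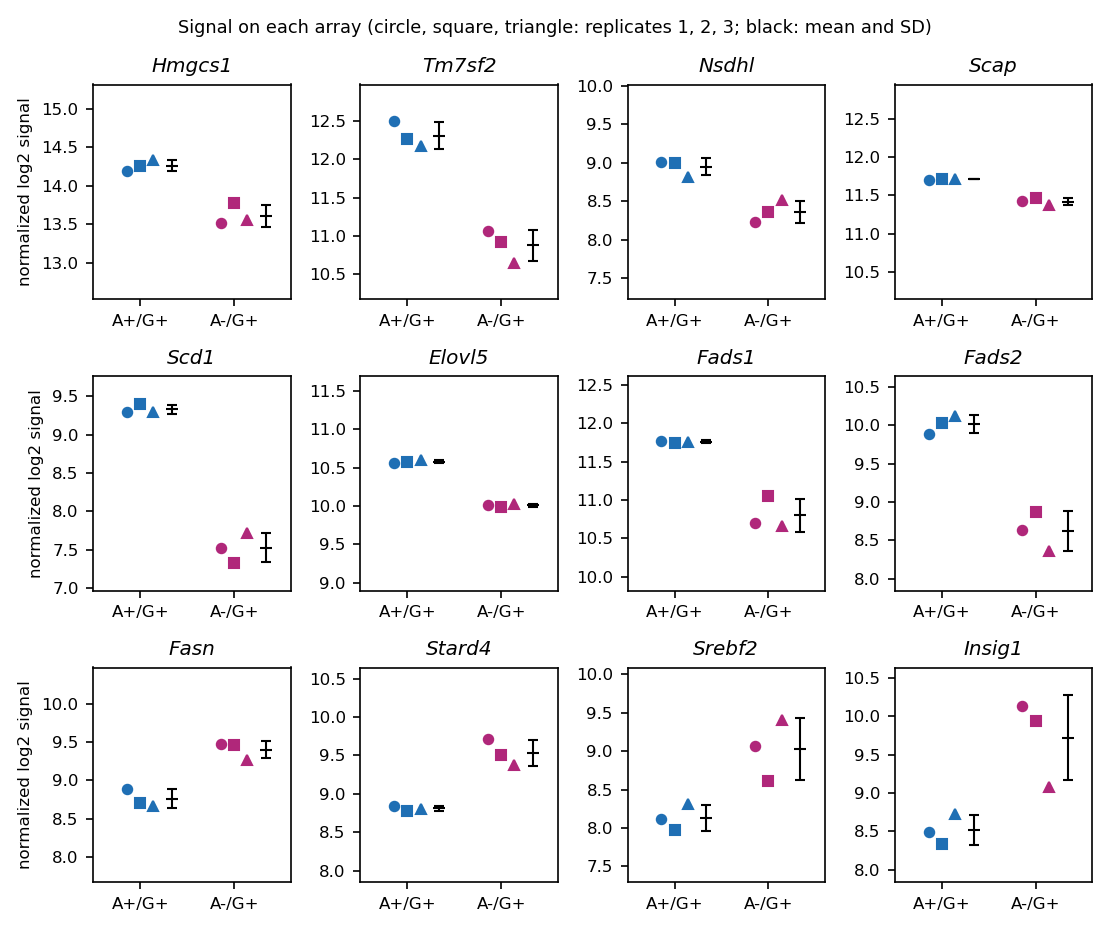
Normalized log2 signal of 12 genes on each array, A+/G+ in blue and A-/G+ in magenta, with the mean and SD of 3 arrays in black and a span of 2.8 log2 units on every axis. Shown are the called genes with Srebf2 and Insig1, so that the lack of overlap in all 12 follows largely from the choice. Of all 33 genes, 14 had A+/G+ above without overlap and 8 had A-/G+ above. Among the bright named genes the shares were 23.4% and 28.3%. The A-/G+ arrays of Insig1 are the most spread, from 9.08 to 10.13.

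The enzymes that make palmitate did not share this direction. None of these 4 genes was called higher in A+/G+, and Fasn, the fatty acid synthase itself, was called higher in A-/G+. This 1 call is 25% of so short a list, compared with 9.49% of the bright named genes. Fasn gave 8.89, 8.71 and 8.67 in A+/G+ and 9.47, 9.46 and 9.27 in A-/G+, a difference of -0.64 (SE 0.0972, adjusted p = 0.0249, limma), or 1.56-fold. The Fasn arrays did not overlap between the fractions. Its call held only without A-/G+ replicate 3 (adjusted p = 0.0201, limma) among the fits that left out 1 array, and the others gave adjusted p from 0.0547 to 0.108. With the methods' test its adjusted p was 0.0522. Acly, which makes cytosolic acetyl-CoA from citrate, had a difference of -0.10 (95% interval -0.24 to 0.04), and a dimmer Acly probe one of -0.73 (adjusted p = 0.0529, limma). Acaca, the acetyl-CoA carboxylase that makes malonyl-CoA, gave 11.80, 11.83 and 11.75 in A+/G+ and 11.63, 11.70 and 11.72 in A-/G+. Its difference of 0.11 was small (95% interval -0.04 to 0.25) although the arrays did not overlap. The other 3 Acaca probes gave 0.40, -0.59 and 0.44, so that they differed in sign, and none was called. Acacb, the mitochondrial carboxylase, gave 0.47 with a wide interval (-0.40 to 1.34).

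In the mevalonate arm 1 of 7 genes was called, Hmgcs1, whose product makes HMG-CoA. This share of 14.3% rests on 1 gene and is near the 9.18% of bright named genes called higher in A+/G+. Hmgcs1 gave 14.19, 14.26 and 14.33 in A+/G+ and 13.51, 13.77 and 13.56 in A-/G+, a 1.56-fold difference of 0.65 (SE 0.0933, adjusted p = 0.0224, limma). The fractions were separated on this bright probe, whereas a dim second probe gave -0.83 (SE 0.825) and was not called, and the mean of both probes gave -0.09. The Hmgcs1 call was lost without any one of the A+/G+ arrays (adjusted p = 0.0726, 0.0983 and 0.096, limma), and under a 75th percentile shift the difference was 0.39 (adjusted p = 0.182, limma). Acat2, which joins acetyl-CoA units at the entry of the pathway, gave 7.78, 7.82 and 8.11 in A+/G+ and 9.28, 8.99 and 8.20 in A-/G+. Its A-/G+ signal was highest on the dimmest array of that fraction and lowest on the brightest, and the difference of -0.92 (95% interval -1.71 to -0.13) was not called (adjusted p = 0.157, limma). Without A-/G+ replicate 3 Acat2 was called (adjusted p = 0.02, limma). The kinases and later enzymes of the arm, Mvk (0.01), Pmvk (0.28), Mvd (0.24), Idi1 (-0.01) and Fdps (0.42), were not called. The intervals of Mvk (-0.70 to 0.73) and Idi1 (-0.46 to 0.43) leave room for a difference in either direction, while those of Pmvk (0.09 to 0.47) and Fdps (0.07 to 0.78) lie above 0. The second Pmvk probe, well above background on all arrays, gave -0.01 (-0.46 to 0.43), and the mean of both Pmvk probes was 0.13. A second Mvk probe, also well above background, gave -0.13 (-0.36 to 0.1). Mvd and Fdps were called without A-/G+ replicate 3 (adjusted p = 0.0405 and 0.029, limma).

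None of the 3 enzymes that make squalene and lanosterol was called. Sqle, the squalene epoxidase, gave 13.17, 13.10 and 13.11 in A+/G+ and 13.04, 13.10 and 12.52 in A-/G+. Its difference of 0.24 (95% interval -0.20 to 0.69) came mostly from A-/G+ replicate 3 and was 0.06 without that array. Fdft1, the squalene synthase, gave 0.08 (-0.06 to 0.22), the narrowest interval of the 3. Lss, the lanosterol synthase, gave -0.27 (-0.56 to 0.02).

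Of the 7 enzymes that turn lanosterol into cholesterol, 2 were called higher in A+/G+ (28.6%, compared with 9.18% of the bright named genes). Tm7sf2, a sterol C14 reductase, gave 12.50, 12.26 and 12.17 in A+/G+ and 11.06, 10.92 and 10.65 in A-/G+, a 2.70-fold difference of 1.43 (SE 0.145, adjusted p = 0.0106, limma). It had the largest difference among the sterol enzymes, and its second probe gave 1.61 (adjusted p = 0.00432, limma). The call was lost only without A+/G+ replicate 2 among the fits that left out 1 array (adjusted p = 0.0544, limma). Nsdhl, a dehydrogenase that helps to remove the C4 methyl groups, gave 9.01, 9.0 and 8.82 compared with 8.23, 8.36 and 8.51. Its difference of 0.58 (SE 0.101, adjusted p = 0.0342, limma) was close to the 0.55 of its second probe, which was not called (adjusted p = 0.157, limma). The Nsdhl call held only without A-/G+ replicate 3 (adjusted p = 0.0242, limma) when single arrays were left out, and the other fits gave adjusted p from 0.063 to 0.135. With the methods' test its adjusted p was 0.0665. Hsd17b7, the keto reductase of the same demethylation, had the opposite sign with -0.60 (95% interval -1.08 to -0.13) and was not called (adjusted p = 0.127, limma), except without A-/G+ replicate 3 (adjusted p = 0.0239, limma). Its other probes gave smaller differences of -0.20 and -0.15, and the mean of its probes gave -0.32 (adjusted p = 0.374, limma). The remaining 4 enzymes had small positive differences that were not called, namely 0.17 for the lanosterol demethylase Cyp51, 0.30 for the isomerase Ebp, 0.20 for the desaturase Sc5d and 0.20 for Dhcr7, the last reductase of the pathway. The interval was wide for Ebp (-0.37 to 0.96) and narrower for Cyp51 (-0.09 to 0.43). Over all 17 sterol enzymes, 3 were called higher in A+/G+ (17.6%), none in A-/G+, and the median difference was 0.20. Among the bright named genes 9.18% and 9.49% were called in these directions.

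The regulators were split. Of the 6 genes for regulation and transport, 1 was called in each direction (16.7%), and their median difference was -0.53. The shares of bright named genes called were 9.18% (A+/G+) and 9.49% (A-/G+), and 1 gene of 6 is near them. The transcription factors had higher means in A-/G+. Srebf2, which encodes SREBP2, the factor most tied to sterol genes, gave 8.11, 7.97 and 8.31 in A+/G+ and 9.07, 8.61 and 9.41 in A-/G+. The arrays did not overlap, but the A-/G+ arrays were spread, and the difference of -0.90 (95% interval -1.49 to -0.30) was not called (adjusted p = 0.0844, limma). A dimmer Srebf2 probe gave the same difference with less spread and was called (SE 0.148, adjusted p = 0.0304, limma), and the bright probe was called without A-/G+ replicate 2 (adjusted p = 0.0476, limma). Srebf1, which encodes SREBP1, gave 7.80, 7.71 and 7.90 compared with 8.23, 8.15 and 8.04, a difference of -0.34 (-0.55 to -0.12, adjusted p = 0.0771, limma).

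Insig1, which holds SCAP in the endoplasmic reticulum and is itself a target of the SREBPs, had the largest difference in the direction of A-/G+. It gave 8.49, 8.34 and 8.72 in A+/G+ and 10.13, 9.94 and 9.08 in A-/G+, a difference of -1.20 (95% interval -2.0 to -0.40) that was not called (adjusted p = 0.0855, limma). As for Acat2, the A-/G+ arrays were ordered by their brightness, with the highest Insig1 signal on the dimmest array. The same order was found in 12 of the 33 genes (36.4%), among them Stard4 and Fasn, both called higher in A-/G+, as well as Hsd17b7, Srebf1 and Tm7sf2, and the reverse order in 6 (18.2%). Over the bright named genes the shares were 21.7% and 20%. The part of array brightness in these differences was not tested. Insig1 was called without A-/G+ replicate 3 (adjusted p = 0.0125, limma) and under a 75th percentile shift (adjusted p = 0.0489, limma). Insig2, which acts in the same way, had the opposite sign with 0.33 (0.09 to 0.56, adjusted p = 0.101, limma). Scap, the escort, gave 11.70, 11.71 and 11.71 in A+/G+ and 11.43, 11.47 and 11.38 in A-/G+. Its difference of 0.28 (SE 0.0502, adjusted p = 0.0359, limma) was the smallest that was called. The call was lost with normexp correction (adjusted p = 0.0549), with a filter on dim probes (0.0934) and with limma's trended robust variance (0.0713), and it held only without A-/G+ replicate 3 (adjusted p = 0.0384, limma) when single arrays were left out. In the other 5 fits its adjusted p was 0.0599 to 0.144. Stard4, a carrier of cholesterol in the cytosol, gave 8.84, 8.78 and 8.80 in A+/G+ and 9.71, 9.51 and 9.37 in A-/G+. The arrays were separated, with a 1.65-fold difference of -0.72 (SE 0.102, adjusted p = 0.0211, limma), and a second probe gave -0.39 (adjusted p = 0.0799, limma). The Stard4 call was lost without A-/G+ replicate 2 (adjusted p = 0.0606, limma) or any one A+/G+ array (adjusted p = 0.0787, 0.0935 and 0.096 for replicates 1, 3 and 2).

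Other probes of the same genes bore on these values. The 33 genes had 50 probes, and 14 genes had more than 1. Of the 17 other probes, 9 passed the background limit on all 6 arrays. Among these 9, 7 had the sign of the brighter probe, and those of Mvk and Pmvk had the opposite sign. Of the 9, 3 were called, namely those of Tm7sf2, Fads2 and Srebf2 given above. The probes of all 10 called genes were placed. They lie, on the array's mm9 annotation, at chr19:44469387-44469446 (Scd1), chr19:6062882-6062941 (Tm7sf2), chr19:10137760-10137819 (Fads2), chr19:10270530-10270589 (Fads1), chr9:77832205-77832264 (Elovl5), chr9:110287280-110287339 (Scap), chrX:70202803-70202862 (Nsdhl), chr11:120667666-120667725 (Fasn) and chr18:33361181-33361240 (Stard4). The Hmgcs1 probe was placed at positions 114793 to 114852 of chr13_random, a sequence not set in order in that build. No gene models of mm9 were used here, so that exon or UTR are not given.

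The scaling of the arrays changed the calls of these genes. With a shift of each array to its own 75th percentile instead of quantile normalization, the median difference over all probes was -1.02, and of the called probes 12.1% were higher in A+/G+. Over the bright named genes the median was -0.09 and the called genes were 50.7% higher in A+/G+. The median of the 33 genes was 0.20 under both scalings, and that of the fatty acid genes was 0.38 under the shift, compared with 0.52. Under the shift only 4 of the 8 members called higher in A+/G+ were still called (Tm7sf2, Scd1, Fads1 and Fads2), whereas 2 were higher in A-/G+ (Insig1 and Stard4). The difference that moved most was that of Scd2, from 0.70 to 0.31, followed by Hmgcs1, from 0.65 to 0.39. Elovl5, Nsdhl, Fasn, Scap and Hmgcs1 were not called under the shift, with adjusted p of 0.0696, 0.0649, 0.0573, 0.342 and 0.182 (limma). Mvk changed sign, from 0.01 to -0.12.

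**Figure D4:**
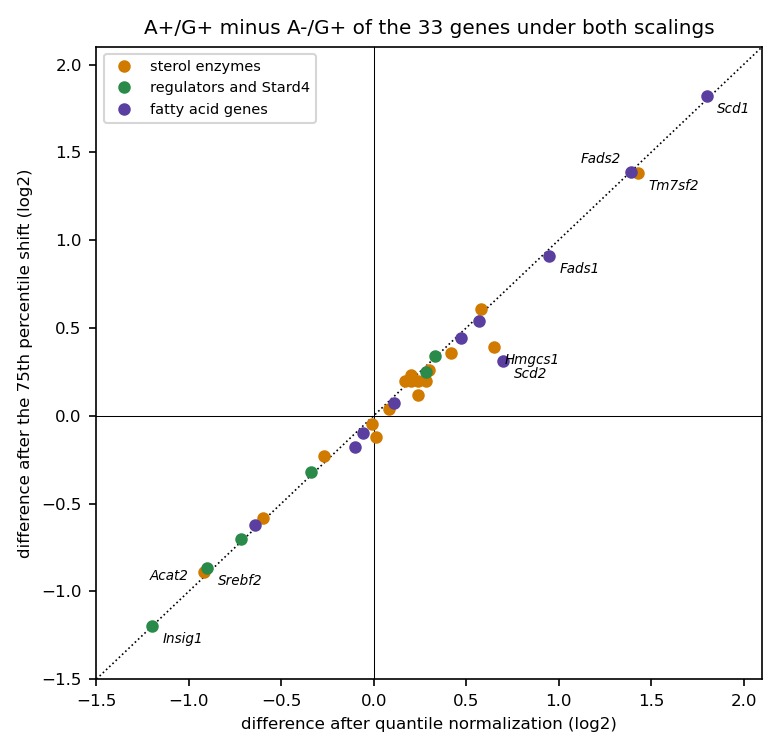
Difference A+/G+ minus A-/G+ of the 33 genes after quantile normalization (x axis) and after a shift to the 75th percentile (y axis), both in log2 units, with the dotted line marking equal values. Most genes lie near the line, and Hmgcs1 (0.65 and 0.39) and Scd2 (0.70 and 0.31) lie below it.

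Of 48 related lipid genes outside the set, 13 were called higher in A+/G+ (27.1%) and 1 was called in the other direction (2.08%). Among all named genes these shares were 7.88% and 5.01%, and among the bright named genes 9.18% and 9.49%. The median difference of the related genes was 0.43, compared with -0.04 over all probes. This list was chosen with earlier results of these data known. On all 6 arrays 41 of them were well above background. Among genes that supply acetyl-CoA, reducing power or activated fatty acids, Acss2, an acetyl-CoA synthetase, gave 1.07 (SE 0.126, adjusted p = 0.0142, limma), the malic enzyme Me1 1.61 (SE 0.167, adjusted p = 0.0112) and the acyl-CoA synthetase Acsl6 1.68 (SE 0.223, adjusted p = 0.0186). The signal of Acsl3, another acyl-CoA synthetase, did not reach the background limit on any A-/G+ array. Its mean was 4.10-fold higher in A+/G+, a difference of 2.04 (interval 1.68 to 2.4, adjusted p = 0.00504, limma). In such cases the fold rests on A-/G+ readings below the background limit, and it is an estimate and not a lower bound. The dehydratase genes Ptpla (0.56), Ptplb (1.19), Ptplad1 (0.78) and Ptplad2 (0.97) were all called higher in A+/G+, with adjusted p from 0.00451 for Ptplb to 0.0485 for Ptplad2. The elongase Elovl1, which acts on long saturated chains, gave 0.67 (adjusted p = 0.0235, limma), whereas the other elongases Elovl2 (0.26), Elovl3 (0.26), Elovl4 (0.08) and Elovl7 (0.50), the keto reductase Hsd17b12 (-0.05) and the enoyl reductase Tecr (0.14) were not called. Elovl3 passed the background limit on 1 A+/G+ array and on no A-/G+ array, and its interval was wide (-1.58 to 2.1).

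Among the related genes for sterol sensing, transport and hydroxylation, calls and uncalled differences of both signs were found. Nr1h3, which encodes the oxysterol receptor LXR-alpha, gave 8.06, 8.42 and 8.14 in A+/G+ and 7.04, 7.20 and 7.39 in A-/G+, a difference of 0.99 (adjusted p = 0.022, limma). Abca1, a cholesterol exporter and LXR target, gave 10.95, 10.82 and 10.90 compared with 9.41, 9.96 and 9.02, a difference of 1.43 (adjusted p = 0.0352, limma). Neither overlapped between the fractions. The exporter Abcg1 gave 1.24 and was not called (adjusted p = 0.0581, limma). The second oxysterol receptor gene Nr1h2 had the opposite sign, with -0.39 and no overlap (adjusted p = 0.0526, limma), as had the LXR target Mylip with -0.59 (adjusted p = 0.231, limma). The sterol transporters Npc1 (0.96) and Npc2 (0.03) and the hydroxylases Cyp46a1 (1.16) and Cyp7b1 (0.10) were not called. Ch25h, which makes 25-hydroxycholesterol, also stayed below the background limit in A-/G+. Its mean was 9.10-fold higher in A+/G+, a difference of 3.19 with a wide interval (2.03 to 4.34, adjusted p = 0.0208, limma). Cyp27a1, another sterol hydroxylase, passed the background limit on 2 of the 3 A+/G+ arrays but on no A-/G+ array. Its difference was 1.19 (interval 0.61 to 1.77, adjusted p = 0.0412, limma). Sc4mol, a C4 methyl sterol oxidase, gave 0.67 (adjusted p = 0.0607, limma). Ggps1, which makes geranylgeranyl diphosphate from the mevalonate arm's products, was the 1 related gene called higher in A-/G+ (-0.36, adjusted p = 0.0381, limma). With each array left out in turn, 2 to 19 related genes were called higher in A+/G+, while 0 to 4 were called in the other direction. The counts higher in A+/G+ were 2, 3 and 2 without A+/G+ replicates 1, 2 and 3. Over all probes they were 1021, 816 and 846 in these fits, compared with 2589 with all arrays. Of the 14 related genes called with all arrays, only Ptplb and Acsl3 were called in all 6 fits (highest adjusted p = 0.032 and 0.033, limma). Me1 was lost without A+/G+ replicate 1 or 3 (up to 0.0601), and the other 11 were lost without any one of the A+/G+ arrays, with highest adjusted p from 0.0711 for Acss2 to 0.17 for Ptplad2.

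**Figure D5:**
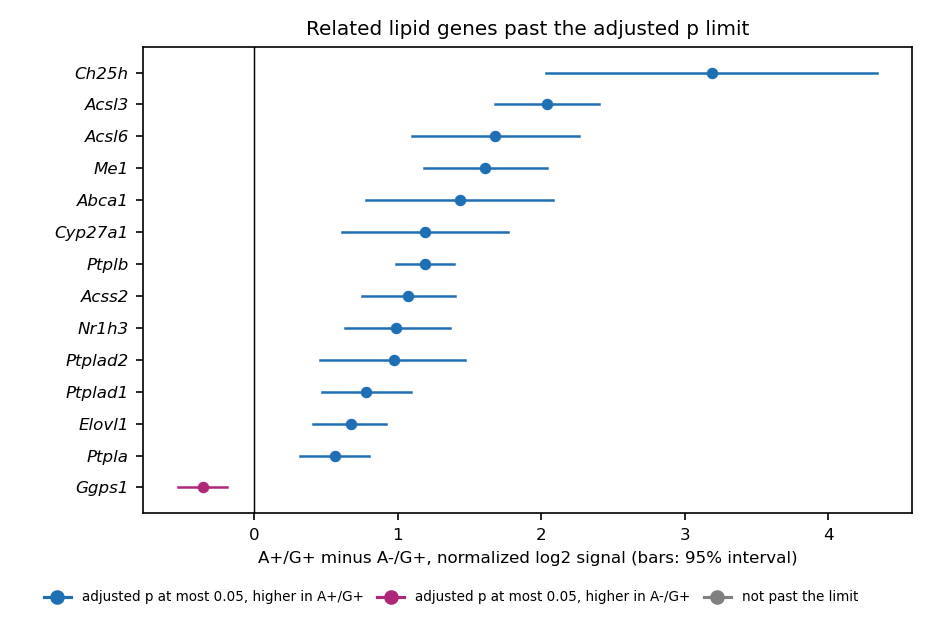
Difference of the 14 related lipid genes past the adjusted p limit, of 48 tested, A+/G+ minus A-/G+, in normalized log2 signal, with its 95% interval from limma over 3 arrays per fraction. Of these genes 13 lie to the right of 0, and Ggps1 (-0.36) lies to the left.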

How the data were processed

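RNA of 3 A+/G+ and 3 A-/G+ samples (up to 50 ng) was amplified, labeled and hybridized to Agilent mouse arrays. The deposited scanner files hold each spot's background-corrected intensity from Agilent Feature Extraction 10.7.3.1. The authors also deposited quantile normalized log2 values, with 38 empty cells. Here intensities were put on the log2 scale without control spots and without spots that the software had marked as outliers, then quantile normalized, and replicate spots were averaged. Fractions were compared over all probes without the replicate number (limma 3.58.1, R 4.3.3). Precision is limited by the number of arrays, and fewer probes are measurable on the dim A-/G+ arrays. The genes, related and marker lists were chosen with earlier results of these data known. All 33 genes are named, related genes where called or of note for their role (Sc4mol and other genes of sterol handling and fatty acid elongation, which were picked after their values were seen). Per-array values are given for called genes and for Hmgcs1, Sqle, Acaca, Fasn, Srebf1, Srebf2 and Insig1 by rule, and Scd2 and Acat2 were added. The fit was tested on simulated data. The alternatives tried were outlier spots kept, scaling to the 75th percentile, normexp (offset 50), the authors' own table, dim probes filtered out, the methods' test, a trended robust variance in limma, probe means per gene, a replicate block, and leaving out each array. A slide block could not be fitted. Promoters came from RefSeq (GRCm38.p6). Some related genes are not reported here by name, and other data of the study were not analysed here.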

Additional observations from a re-analysis of the deposited data

How the results depend on the processing

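Main counts were 8 members called higher in A+/G+, 2 called higher in A-/G+, 13 and 1 related genes, and 2589 and 2583 probes. Under the 75th percentile shift, 4 members were called higher in A+/G+, the median of the fatty acid genes was 0.38, 0 related genes and 17203 probes were called higher in A-/G+ (the scaling moves the median of all probes), and Mvk was -0.12. With normexp correction, 4 members (Insig1 and Srebf2 beside Stard4 and Fasn) and 2 related genes were called higher in A-/G+ and the fatty acid median was 0.40. In the authors' table that median was 0.54 and the difference of Idi1 was 0.00. A filter on dim probes called the same 4 members and 0 related genes higher in A-/G+. The methods' test called 1 member and 0 related genes higher in A-/G+, 4 related genes higher in A+/G+, and 1351 and 1197 probes in the 2 directions (A+/G+ first). Limma with trend and robust variance called 0 related genes higher in A-/G+. Averaging a gene's probes gave 4 members (Srebf2, Acly, Stard4 and Fasn) and 2 related genes higher in A-/G+, a fatty acid median of 0.33, and -0.09 for Hmgcs1, -0.06 for Mvk and -0.08 for Acacb. The cause of these changes was not tested. With each array left out in turn, members higher in A+/G+ numbered 2 to 11 and in A-/G+ 0 to 5, related genes 2 to 19 and 0 to 4, and probes 816 to 4437 and 404 to 4578. The medians ranged from 0.15 to 0.25 (sterol enzymes), 0.35 to 0.55 (fatty acid genes) and -0.55 to -0.46 (regulators and Stard4). Mvk then ranged from -0.21 to 0.30 and Idi1 from -0.19 to 0.09. With the replicate block, 0 members, 0 related genes and 0 probes were called in either direction (18 members had an unadjusted p under 0.05). The replicate numbers are not known to pair samples, since no label says so. With 3 arrays per fraction the block leaves few residual degrees of freedom, and its loss of calls does not bear on pairing. The deviations of same-numbered samples correlated at 0.20, 0.11 and -0.11 over 17967 bright probes. Only those of replicate 1 correlated best with their own number. So few arrays cannot decide whether samples were paired. Depth, as signal over background, limits the A-/G+ arrays most.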
